A study of Mus musculus with 22 samples.

Results

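Cct8 and the other 7 genes of the cytosolic chaperonin TRiC (also called CCT) were followed in RNA-Seq read counts of mouse hippocampus (HIP) and entorhinal cortex (EC). The members were chosen by name: Cct8, Tcp1, Cct2, Cct3, Cct4, Cct5, Cct6a and Cct7, 8 of the 55385 genes in the count table. The animals were 11 adult males, 5 wt and 6 Ts66Yah littermates, and each gave 1 HIP and 1 EC library, so that 22 libraries were compared. Ts66Yah is a Down syndrome model on a mixed B6C3B background that descends from 1 founder. It carries a freely segregating minichromosome with an additional copy of the distal part of mouse chromosome 16 (Mmu16), without the centromeric part of Mmu17 found in its parental line Ts65Dn. Cct8 lies in the triplicated Mmu16 segment, whereas the other 7 subunit genes lie on other chromosomes and are present in their normal copy number. All replicates were separate animals. Total counts per library lay between 25900479 and 50105778, and each subunit had between 2500 and 11710 reads in every library.

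TRiC is an ATP-driven folding machine built of a pair of stacked rings, and each ring holds every one of its related subunits in a fixed order. It folds newly made actin and tubulin and many proteins with WD40 repeats, among them G protein beta subunits, and receives substrates from prefoldin. Since a ring needs each subunit once, the level of 1 subunit relative to its partners is a natural measure when only that subunit gains a gene copy. The genes are named after the letter of their subunit: Tcp1 encodes CCT-alpha, Cct2 beta, Cct3 gamma, Cct4 delta, Cct5 epsilon, Cct6a zeta, Cct7 eta and Cct8 theta.

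Positions are given on GRCm38. Cct8 (ENSMUSG00000025613) is at chr16:87483326-87495873 on the minus strand. Tcp1 is at chr17:12915701-12925067, Cct2 at chr10:117051001-117063814, Cct3 at chr3:88297116-88321767 and Cct4 at chr11:22990519-23003780. Cct5 is at chr15:31590800-31601804, Cct6a at chr5:129786998-129846371 and Cct7 at chr6:85451514-85468475. The 3′ end of Cct8 overlaps exons of Usp16 on the opposite strand over 192 of its 3088 exon bases. Tcp1 overlaps Acat3 over 571 and Mrpl18 over 141 of 5030 bases, Cct6a overlaps Psph over 452 of 3620, and Cct7 overlaps Pradc1 over 214 of 6778, all on the opposite strand. The strand setting of the counting was not given in the sources used here, so reads in these stretches cannot be assigned with certainty. Cct3, Cct4, Cct7 and Tcp1 share stretches of 535 to 1650 bases with annotated pseudogenes. The one of these with the most counts relative to its parent, Gm5380, reached 0.654% of the Cct7 counts. No such copy was found for Cct8, Cct2 or Cct5, and the matches of Cct6a were at most 209 bases long.

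Promoter sequences from RefSeq (GRCm38.p6) were matched for 7 of the 8 genes, with none for Cct4. Each window runs from 250 bases before to 50 bases after the start of transcription. Cct8, Tcp1 and Cct2 are shown because they carry the same ETS-type motif near the start, and Cct5 because its level did not follow the other subunits between regions. Capitals mark the ETS-type motif CCGGAAG, the GC box GGGCGG and the CCAAT box CCAAT, each searched on both strands (a match on the other strand appears as its reverse complement), and marked motifs did not overlap in these windows.
Cct8, chr16:87495820-87496119, minus strand: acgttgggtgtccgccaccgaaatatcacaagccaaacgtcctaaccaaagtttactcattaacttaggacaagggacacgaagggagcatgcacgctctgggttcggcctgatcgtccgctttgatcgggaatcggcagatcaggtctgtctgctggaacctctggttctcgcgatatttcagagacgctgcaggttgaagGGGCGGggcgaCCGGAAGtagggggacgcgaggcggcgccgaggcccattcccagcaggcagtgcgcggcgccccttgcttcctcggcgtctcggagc
Tcp1, chr17:12916079-12916378, plus strand: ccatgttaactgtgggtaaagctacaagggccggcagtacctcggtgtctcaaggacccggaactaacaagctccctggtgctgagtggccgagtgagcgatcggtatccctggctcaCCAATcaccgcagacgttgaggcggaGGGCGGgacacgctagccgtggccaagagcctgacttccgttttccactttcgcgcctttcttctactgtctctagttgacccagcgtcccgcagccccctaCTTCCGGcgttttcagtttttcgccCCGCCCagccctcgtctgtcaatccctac
Cct2, chr10:117063803-117064102, minus strand: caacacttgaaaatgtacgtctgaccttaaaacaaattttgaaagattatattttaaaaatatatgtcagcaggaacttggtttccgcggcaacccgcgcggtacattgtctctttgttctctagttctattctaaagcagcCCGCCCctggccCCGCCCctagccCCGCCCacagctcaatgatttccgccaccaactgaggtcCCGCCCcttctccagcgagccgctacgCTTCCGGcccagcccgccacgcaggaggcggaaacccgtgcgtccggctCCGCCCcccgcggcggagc
Cct5, chr15:31601797-31602096, minus strand: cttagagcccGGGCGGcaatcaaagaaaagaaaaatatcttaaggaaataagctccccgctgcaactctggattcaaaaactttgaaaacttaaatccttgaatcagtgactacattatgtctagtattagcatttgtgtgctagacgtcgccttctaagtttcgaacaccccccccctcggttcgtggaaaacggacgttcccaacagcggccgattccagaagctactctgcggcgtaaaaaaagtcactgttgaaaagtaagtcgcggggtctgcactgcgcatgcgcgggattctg
The ETS-type motif was found in 3 of the 7 windows and in 8.86% of all 32851 RefSeq promoter windows. In the direction of transcription, the match begins 37 bases before the start in Cct8, 4 bases before it in Tcp1 and 18 bases before it in Cct2. A GC box was present in all 7 windows, against 35.7% of all windows, and a CCAAT box in 4 of 7, against 37.4%. Of the heat shock element only the form GAANNTTC was searched, and it was in none of the 7 (7.86% of all windows). Other arrangements of its units were not searched, so the absence of heat shock elements cannot be read from this. TATAAA was also in none of the 7 (13.6% of all windows). The bases G and C made up 47.3% (Cct5) to 67.7% (Cct7) of these windows, all but Cct5 above the median of 52.7% over all windows. The shares of all windows were not matched for this composition. These matches are descriptions of the letters in the windows.

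The first question was whether Cct8 follows its gene copy number while its partners do not. In the HIP, the level of Cct8 in counts scaled to a common library size (CPM) was 154, 173, 166, 174 and 161 in the 5 wt libraries. In the 6 Ts66Yah HIP libraries it was 245, 266, 238, 261, 255 and 243 CPM. The genotypes did not overlap, and the lowest Ts66Yah library stood well above the highest wt library. Cct8 rose by 0.60 on the log2 scale (SE 0.05, 95% interval 0.50 to 0.70), a 1.52-fold increase (edgeR quasi-likelihood test, adjusted p = 1.22e-05). Among all 18452 genes tested in the HIP, 0.439% were called higher and 0.152% lower in Ts66Yah.

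In the EC, Cct8 was at 199.7, 189.9, 195, 245 and 199 CPM in the wt libraries. The Ts66Yah EC libraries lay between 306 and 350.4 CPM around a median of 321. Again the genotypes did not overlap, although 1 wt library, replicate 4, stood above the other wt libraries. Cct8 rose by 0.65 on the log2 scale (SE 0.07, 95% interval 0.50 to 0.80), a 1.56-fold increase (edgeR adjusted p = 0.000433). Of the 17658 genes tested in the EC, 0.272% were called higher and 0.0113% lower. Without wt EC replicate 4 the log2 fold change was 0.72.

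The other 7 subunits did not pass the test in either region, in either direction, and none had an unadjusted p under 0.05 in edgeR. DESeq2 and limma voom called none of them either. Tcp1 at 0.09 (95% interval −0.00 to 0.18) and Cct2 at 0.08 (95% interval −0.01 to 0.17) had the highest log2 fold changes among them in the HIP. For Tcp1 3 of 6 and for Cct2 4 of 6 Ts66Yah libraries lay above every wt library, but the genotypes overlapped. Their edgeR adjusted p was 0.449 and 0.469. Cct3, Cct4, Cct5, Cct6a and Cct7 lay between −0.05 (Cct4) and 0.02 (Cct7) there. The EC values of the 7 subunits lay between −0.05 (Cct3) and 0.06 (Cct2), and the lowest edgeR adjusted p among them was 0.975. Every 95% interval of these 7 subunits stayed within −0.15 to 0.18 (HIP) and −0.21 to 0.22 (EC), so that a change smaller than these bounds is possible. The upper bounds lie far below 0.58, the log2 of 1.5, the dosage of 3 gene copies against 2.

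**Figure D1:**
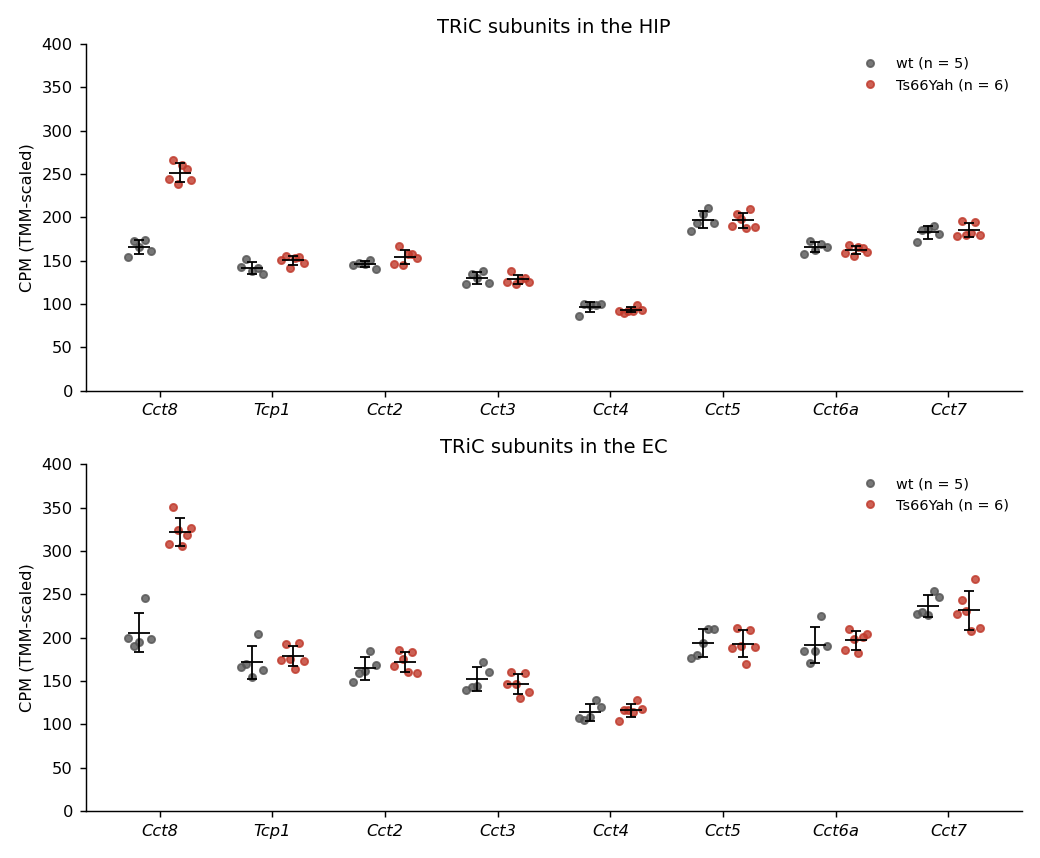
Level of the 8 TRiC subunits in CPM (TMM-scaled) in each library of the HIP (top) and the EC (bottom); grey points are wt, red points Ts66Yah, black bars the mean and SD. Only Cct8 separates the genotypes: 238 to 266 against 154 to 174 CPM (HIP) and 306 to 350.4 against 189.9 to 245 CPM (EC).

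**Figure D2:**
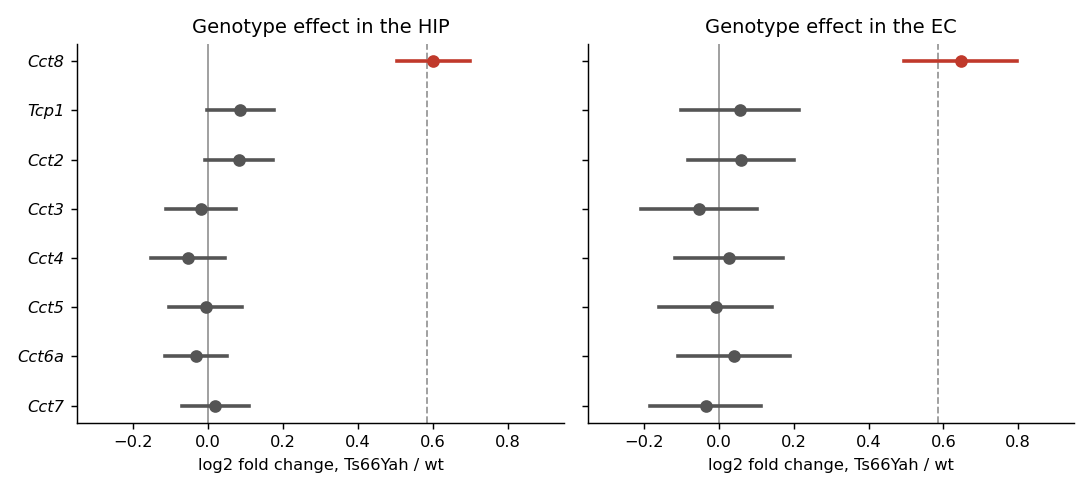
Log2 fold change of Ts66Yah over wt with its 95% interval (edgeR) for each subunit in the HIP and the EC; red marks an adjusted p under 0.05, the solid line no change and the dashed line 1.5-fold. Cct8 lies at 0.60 and 0.65, next to the dashed line, and the intervals of the other 7 subunits end at 0.22 or below.

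Cct8 was then tested against the 1.5-fold dosage itself. In the HIP it differed from 1.5-fold by 0.02 on the log2 scale (95% interval −0.08 to 0.11; edgeR p adjusted over the 101 tested segment genes = 0.879). In the EC the difference was 0.06 (95% interval −0.09 to 0.21; edgeR p adjusted over 93 segment genes = 0.871). A departure from 1.5-fold was therefore not detected in either region, within these intervals. In the EC this difference depended on wt replicate 4. Without it the difference was 0.14 (95% interval 0.03 to 0.25), an interval above 0, with an edgeR p adjusted over the segment of 0.174.

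Compared with the rest of the triplicated segment, Cct8 was close to the middle in the HIP and above the middle in the EC. The median log2 fold change of the segment was 0.59 (HIP) and 0.57 (EC), and edgeR called 57.4% and 48.4% of its tested genes higher. Cct8 ranked 47 of 101 by log2 fold change (HIP) and 27 of 93 (EC). By p-value, it ranked 4 (HIP) and 13 (EC) among all genes tested. The 2 nearest protein-coding genes tested on each side were Usp16 (a histone H2A deubiquitinase) and Rwdd2b on the lower side and Map3k7cl and Bach1 (a haem-regulated transcription factor) on the upper side. Usp16 rose by 0.58 (HIP; edgeR adjusted p = 0.000265) and by 0.59 (EC; edgeR adjusted p = 0.00243). Rwdd2b rose by 0.66 and 0.69 and Bach1 by 0.44 and 0.59, all with an edgeR adjusted p of 0.00569 or lower. Map3k7cl, at a mean of 0.527 to 0.751 CPM, had log2 fold changes of −0.06 and 0.51 and was not called. Cct8 is thus flanked by genes with changes of a like size, except for the barely detected Map3k7cl.

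A ratio within a library does not depend on how libraries are scaled. In each library, Cct8 was divided by the geometric mean of the other 7 subunits. In wt HIP the 5 ratios were 1.10, 1.14, 1.12, 1.14 and 1.11, and in Ts66Yah HIP they ranged from 1.65 to 1.75. On the log2 scale the mean ratio was 0.16 ± 0.02 (SD, n = 5) in wt, against 0.75 ± 0.03 (SD, n = 6) in Ts66Yah. The spread among animals of 1 genotype was therefore small next to the step between genotypes, a difference of 0.59 or 1.51-fold (exact permutation test over 462 splits, two-sided, p = 0.00433, the smallest this test can give). In the EC the wt ratios were 1.24, 1.18, 1.19, 1.27 and 1.13 and the Ts66Yah ratios ranged from 1.70 to 1.95. The log2 ratio was 0.26 ± 0.07 (SD, n = 5) against 0.90 ± 0.07 (SD, n = 6), a difference of 0.64 or 1.55-fold. This difference also gave p = 0.00433 in the exact permutation test, and adjustment over the 2 regions left both values at 0.00433. Against a 1.5-fold step, the exact permutation test gave p = 0.784 (HIP) and p = 0.264 (EC). In the HIP this last result depended on how the partners were summarised. With their median in place of their mean the step was 1.44-fold, and the exact permutation test against 1.5-fold gave p = 0.026.

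**Figure D3:**
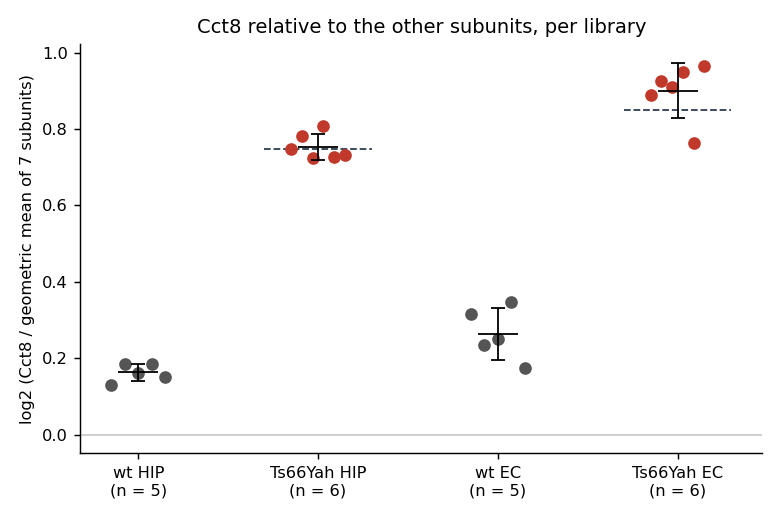
Log2 ratio of Cct8 to the geometric mean of the other 7 subunits in each of the 22 libraries, with the mean and SD of each group; the dashed lines lie 1.5-fold above the wt mean of the same region. The wt and Ts66Yah libraries do not overlap, with means of 0.16 and 0.75 (HIP) and 0.26 and 0.90 (EC).

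The same step was seen against every partner taken singly. In none of the 14 pairwise ratios, 7 per region, did the genotypes overlap. The difference in log2 ratio lay between 0.52 (Tcp1) and 0.65 (Cct4) for HIP libraries and between 0.59 (Tcp1) and 0.70 (Cct3) for EC libraries. By contrast, when each of the 7 non-triplicated subunits was divided by the mean of the remaining ones, the differences between genotypes ranged from −0.08 to 0.09 and the genotypes overlapped in all cases. Tcp1 had the highest value in both regions, 0.09 (HIP) and 0.05 (EC), with wt spreads of 0.08 and 0.11 (SD). Some other differences were larger next to their wt spread. Cct2 had 0.083 in the HIP (wt SD 0.045) and Cct3 −0.078 in the EC (wt SD 0.030). The ratios of these 7 subunits were not tested. The mean log2 CPM of the 7 partners was 7.21 ± 0.05 (SD, n = 5) in wt HIP, next to 7.22 ± 0.05 (SD, n = 6) in Ts66Yah HIP. In the EC it was 7.41 ± 0.11 (SD, n = 5) and 7.43 ± 0.09 (SD, n = 6).

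To compare levels between subunits, CPM was divided by exon length in kilobases. On this scale, Cct5 had the highest level in wt, at 71.3 ± 3.67 CPM per kb (HIP) and 70.1 ± 5.77 (EC; SD, n = 5), and Cct3 the lowest, with means of 20.4 and 23.9. Cct8 made up 16.4% ± 0.264 (SD, n = 5) of the summed level of all 8 subunits in wt HIP, compared with 22.8% ± 0.424 (SD, n = 6) in Ts66Yah HIP. In the EC its share went from 17.8% ± 0.731 (SD, n = 5) to 25.1% ± 0.893 (SD, n = 6). An equal share would be 12.5%. Cct8 thereby moved from place 3 to place 1 among the subunits (HIP) and from place 2 to place 1 (EC), and Cct5 from place 1 to place 2. In wt EC the neighbours in that order, Cct5, Cct8 and Cct2 (18.8%, 17.8% and 17.2%), had overlapping ranges over the 5 libraries.

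These shares depend on the length used. With the longest coding transcript in place of all merged exons, a choice made after the data were seen, the share of Cct8 was 12.5% in wt and 17.6% in Ts66Yah HIP, and 13.4% in wt and 19.4% in Ts66Yah EC. It moved from place 4 to place 2, behind Cct5 (HIP), and from place 3 to place 1 (EC). The step between genotypes was seen with both lengths, but the order among subunits was not the same. For Cct6a, annotated as a processed transcript, the transcript length was not restricted to coding transcripts.

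**Figure D4:**
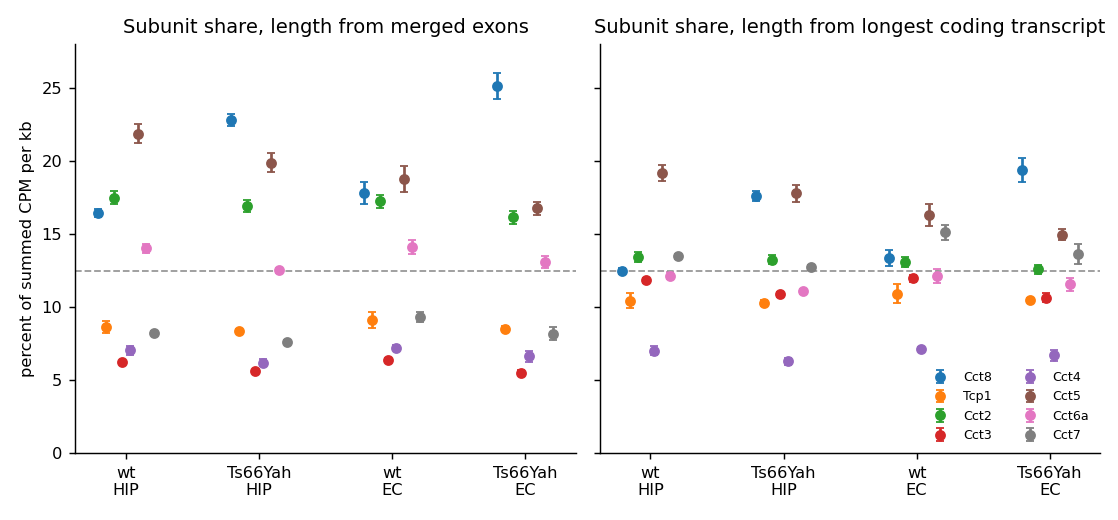
Share of each subunit in the summed CPM per kb of the 8 subunits (mean and SD over libraries) in the 4 groups, with length from merged exons (left) or from the longest coding transcript (right); the dashed line is an equal share of 12.5%. On the left, Cct8 goes from 16.4% to 22.8% (HIP) and from 17.8% to 25.1% (EC). On the right, the transcript length of Cct6a was not restricted to coding transcripts.

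The regions were compared next. In wt, 7 of the 8 subunits were higher in the EC than in the HIP by edgeR, where 23.4% of 17935 tested genes were called higher and 24.3% lower. Cct7 rose by 0.38 (SE 0.05, adjusted p = 8.94e-05), Cct8 by 0.31 (SE 0.07, adjusted p = 0.00321) and Tcp1 by 0.28 (SE 0.07, adjusted p = 0.00737). Cct4, Cct3, Cct6a and Cct2 rose by 0.24, 0.23, 0.21 and 0.18, the last with an edgeR adjusted p of 0.0281. In Ts66Yah the same 7 subunits were called higher, by 0.15 (Cct2) to 0.35 (Cct8), where 26.4% of 18043 tested genes were called higher and 27.5% lower. None of the 8 was called lower in the EC. These fits did not pair the regions of an animal, and some calls were lost when 1 animal was left out. In wt, the call for Cct2 was lost without replicate 3, 4 or 5 and that for Cct6a without replicate 1, 3 or 5. That for Cct3 was lost without replicate 5, and edgeR adjusted p values in wt reached 0.101. In Ts66Yah the call for Cct2 was lost without replicate 1, 3 or 5. With all animals and the animal as a block, edgeR called Cct2, Cct3 and Cct6a in wt (adjusted p = 0.0247, 0.0076 and 0.019) and Cct2 in Ts66Yah (0.0144).

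Cct5 was the exception. Its level was 185, 193, 204, 211 and 194 CPM in wt HIP and 176, 179, 194, 209 and 210.2 CPM in wt EC. The Ts66Yah libraries lay between 188 and 209.6 CPM around a median of 194 (HIP), and between 169 and 211 CPM around a median of 189.9 (EC). The regions overlapped in both genotypes. The log2 difference of EC over HIP was −0.02 (95% interval −0.16 to 0.12) in wt and −0.03 (95% interval −0.15 to 0.09) in Ts66Yah, with edgeR adjusted p of 0.800 and 0.667.

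Since HIP and EC came from the same animals, the difference can be read within each animal. Cct8, Tcp1, Cct2, Cct3, Cct4 and Cct7 were higher in the EC in 11 of 11 animals and Cct6a in 10 of 11. Cct5 was higher in 3 of 11. Relative to the mean of the other 6 non-triplicated subunits, Cct5 was lower in the EC in 11 of 11 animals, by 0.28 ± 0.07 on the log2 scale (SD, n = 11), or 0.826-fold. Among the subunit ratios only this one, which had the largest difference, was tested, after its values had been seen. An exact sign-flip permutation test gave p = 0.000977, two-sided, the smallest it can give. With all 11 differences of the same sign this value is fixed, so it adds nothing to that count. It was not adjusted for the choice of Cct5. Cct7 stood at the other end, with a ratio to its partners that was higher in the EC in 11 of 11 animals by 0.16 ± 0.07 (SD, n = 11). The ratios of Cct8 (0.13 ± 0.07) and Tcp1 (0.06 ± 0.06) were also higher in 11 of 11 animals. The remaining ones were higher in 3 (Cct2) to 9 (Cct6a) of 11. The partners of each of these include Cct5, which did not rise in the EC, and this raises their ratios.

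**Figure D5:**
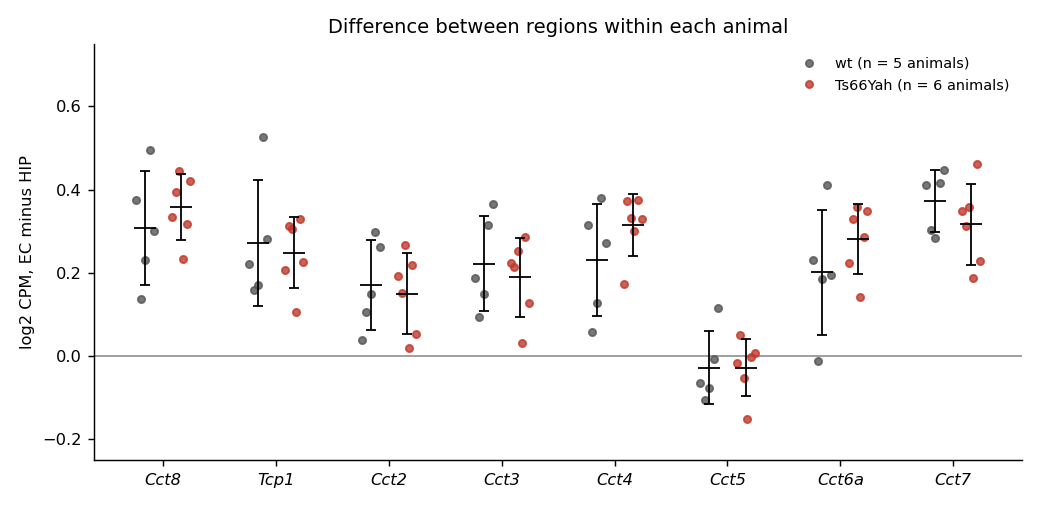
Difference in log2 CPM between the EC and the HIP of the same animal for each subunit, in wt (grey, 5 animals) and Ts66Yah (red, 6 animals), with the mean and SD. All points lie above 0 for 6 of the subunits, 1 Cct6a point lies just below 0, and the Cct5 points scatter around 0 between −0.15 and 0.12.

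The dissected tissue matched its label as cortex or hippocampus by regional markers. In the EC of wt, 7 of 7 cortical markers (such as Tbr1 and Lamp5) were higher and 6 of 7 hippocampal markers lower, with Wfs1 the exception. The cortical list was not specific to the EC. Cell type markers also moved with the region, and fewer cells of a type cannot be told apart from less RNA per cell in bulk tissue. All 6 oligodendrocyte markers were lower in the EC, with a median log2 difference of −2.12, and their summed level was 6863 to 10027 CPM in wt HIP and 1300.1 to 3307 CPM in wt EC. Of the 6 neuronal markers 4 were higher, with a median of 0.28, and the summed level rose from 6636 to 7135 CPM in wt HIP to 8033 to 8969 CPM in wt EC. All 6 choroid plexus markers were lower (median −4.56). Higher in the EC were also 4 of 6 striatal markers, 4 of 5 microglial (median 0.36), 3 of 4 endothelial (0.32) and 4 of 5 erythroid markers (1.38). Of the 5 meningeal markers 3 were higher and 1 was lower (median 0.72), and the same counts held for the 5 astrocyte markers (median 0.24). Among the wt EC libraries, replicate 2 had the highest summed striatal (290.7 CPM, median 134.4) and choroid plexus level (44.3 CPM, median 13.0). It also had the highest oligodendrocyte (3307 CPM) and cortical sums (665.4 CPM). In Ts66Yah the counts of oligodendrocyte, choroid plexus, cortical, hippocampal, endothelial and erythroid markers called in each direction were the same as in wt. Of the others, 5 of 5 microglial, 3 of 6 neuronal and 3 of 6 striatal markers were called higher, and 3 of 5 astrocyte markers higher and 2 lower. Of the meningeal markers none was called higher and 1 lower in Ts66Yah, with a median of 0.15. The part of these differences in the values of the subunits was not tested. Between genotypes, no marker of these lists was called by edgeR, DESeq2 or limma voom in either region. All 5 microglial markers had values below 0 in Ts66Yah in both regions, with a median of −0.13 (HIP) and −0.14 (EC), and their part in the results was not tested. At an unadjusted edgeR p under 0.05 stood 1 microglial, 1 neuronal and 1 hippocampal marker in each region and 1 cortical marker in the HIP. Of all tested genes, 1004 were higher and 1184 lower at that level among 18452 (HIP), and 493 and 610 among 17658 (EC).

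Whether the step of Cct8 between genotypes differs between regions was tested over all 22 libraries. For Cct8 the interaction was 0.05 on the log2 scale (95% interval −0.12 to 0.22), and for the other 7 subunits it ranged from −0.05 (Cct7) to 0.08 (Cct4). With edgeR, none of the 8 and 0% of the 19074 genes tested were called, whereas 388 genes had an unadjusted p under 0.05. A difference between regions in the genotype effect was not detectable at this number of animals.

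Within a group, the subunits went up and down together. After subtraction of the group means, the log2 CPM of all 28 pairs of subunits correlated positively over the 22 libraries, from 0.49 to 0.93 with a median of 0.72, and the 7 pairs with Cct8 ranged from 0.54 to 0.93. This is a description: pairs share their library, its depth and its tissue composition. In the EC, wt replicate 4 was highest among the wt libraries for 7 of the 8 subunits, all but Cct5. It also had the lowest summed level of cortical (530.2 CPM) and oligodendrocyte markers (1300.1 CPM) and the highest of meningeal markers (98.6 CPM) among the wt EC libraries, and the part of these in its subunit levels was not tested.

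Over the 22 libraries, the 5 genes whose log2 CPM was most like that of Cct8, among the 9895 genes that reached 10 CPM on average, were Ttc3 (Pearson r = 0.961), Ets2 (0.956), Rcan1 (0.951), App (0.951) and Wrb (0.946). All 5 lie in the triplicated segment. For the mean of the other 7 subunits, the 5 most similar genes were Eif3c (0.950), Gdi2 (0.950), Tmed10 (0.949), Ube2d2a (0.948) and Eef1e1 (0.937), none of which lies in the segment. The points share libraries, regions and genotypes, and no p-value is given.

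The genes that work with TRiC were described from lists chosen with earlier results of these data known. Between genotypes, edgeR called 0.439% of all tested genes higher and 0.152% lower (HIP), and 0.272% and 0.0113% (EC). Of these lists it called no gene in either region, apart from Cct8 itself. limma voom gave the same counts, whereas DESeq2 also called Hspa8 higher in both regions. Of all 18452 genes tested in the HIP, 1004 were higher and 1184 lower at an unadjusted edgeR p under 0.05. Of the 17658 tested in the EC it was 493 and 610. From the lists, 1 actin or tubulin gene, 1 WD40 gene, 3 HSP70 or HSP90 genes and 1 HSF1 regulator stood at that level in the HIP. In the EC it was 1 HSP70 or HSP90 gene. Named after their values were seen, these were Tubg2 (−0.17), Cdc20 (−0.61), Hspa8 (0.62), Dnajb1 (0.16), Dnajb6 (−0.19) and Hsf4 (−0.33) in the HIP and Hspa8 (0.64) in the EC, as log2 fold changes. All 6 prefoldin subunits were measured, and the median of their log2 fold changes was −0.01 (HIP) and −0.02 (EC). The most abundant of them, Pfdn5, had −0.03 (95% interval −0.13 to 0.07) and −0.02 (95% interval −0.24 to 0.19). Of the phosducin-like and other cofactors of TRiC, Pdcd5 among them, 4 of 6 passed the filter on low counts. Pdcl had 0.09 (HIP; 95% interval −0.01 to 0.19) and 0.01 (EC; 95% interval −0.18 to 0.20), and Txndc9 had 0.09 and −0.02. All 6 tubulin folding cofactors had values below 0 in the HIP, around a median of −0.10 and without a call. Tbcb had −0.08 and Arl2 −0.10 there, and −0.05 and −0.12 in the EC.

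None of the substrate genes listed here passed the edgeR test, beside the shares of all tested genes given above. Other substrates were not examined. The medians of the 20 actin and tubulin genes were 0.04 (HIP) and −0.02 (EC), beside 0.00 and −0.00 for all tested genes, with Actb at −0.07 and −0.03 and Tubb4a at 0.02 and −0.04. Of 11 genes with WD40 repeats 10 were tested, with medians of −0.04 and −0.06, and the most abundant, Gnb1, had 0.03 and −0.01. The 23 genes of the HSP70 and HSP90 chaperones and their co-chaperones had medians of 0.05 and 0.03, with values from −0.23 to 0.62 (HIP) and from −0.43 to 0.64 (EC). Hsp90ab1, the most abundant, had 0.07 and 0.02 and Hsp90aa1 0.07 and 0.06. HSF1 and its regulators had medians of 0.05 and −0.06, with Hsbp1 at 0.08 and −0.02 and Hsf2 at 0.08 and −0.00. The mitochondrial chaperones, a separate folding system, were Hspd1 and Hspe1 of the chaperonin, Hspa9 and Trap1. Their medians were −0.04 and 0.02, with Hspd1 at 0.07 and 0.04 and Hspa9 at −0.08 and −0.00. Of the chaperonin-like relatives of TRiC 3 of 5 were tested, with Mkks at 0.16 and 0.17 and Bbs10 at 0.01 and −0.02.

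Hspa8, which encodes the constitutive HSP70 of the cytosol, had the highest value of its list in both regions, and it is named here after its values were seen. It lies on chromosome 9, outside the triplicated segment. In the HIP its level was 348, 327, 228, 376 and 229.6 CPM in wt and 371, 541, 473, 466, 529.6 and 402 CPM in Ts66Yah. In the EC it was 375, 427, 284, 519.9 and 309 CPM in wt and 484, 690.2, 600.1, 549, 768 and 501 CPM in Ts66Yah. The genotypes overlapped in both regions, since wt replicate 4 lay above 1 Ts66Yah library in the HIP and above 2 in the EC, and the other wt libraries lay below all of Ts66Yah. The log2 fold change was 0.62 (HIP; 95% interval 0.32 to 0.92) and 0.64 (EC; 95% interval 0.30 to 0.99), close to that of Cct8 but with wider intervals. The edgeR adjusted p was 0.0722 (HIP) and 0.222 (EC), that of limma voom 0.0649 and 0.173, and that of DESeq2 0.000975 and 0.0154. Whether Hspa8 was called therefore differed between tests. With no filter on low counts, edgeR called Hspa8 in the HIP (adjusted p = 0.0143). Without wt EC replicate 4, edgeR called it in the EC (log2 fold change 0.79, adjusted p = 0.0496). Over all left-out libraries the value lay between 0.54 and 0.71 (HIP) and between 0.56 and 0.79 (EC).

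Between regions, the lists were compared in both genotypes, beside the shares of all tested genes called (in wt 23.4% higher and 24.3% lower, in Ts66Yah 26.4% and 27.5%). In wt, 5 of 6 prefoldin genes were called higher in the EC by edgeR, with a median log2 difference of 0.37 beside 0.01 for all tested genes, and Vbp1, at 0.03, was the one not called. In Ts66Yah it was 5 of 6 as well. Pfdn5 rose by 0.23 (edgeR adjusted p = 0.0425). Of the WD40 genes 7 of 10 were called higher in each genotype, with Gnb1 up by 0.51 (edgeR adjusted p = 9.53e-06) and Ddb1 by 0.26 in wt. Of the phosducin-like and other cofactors of TRiC 2 of 4 were called higher in wt, Pdcl by 0.34 and Txndc9 by 0.21, and 1 of 4 in Ts66Yah. The actin and tubulin genes were divided, with 10 of 20 called higher and 4 lower in wt and 8 higher and 6 lower in Ts66Yah, and Actb fell by 0.34 in wt. Of the tubulin cofactors 2 of 6 were called higher, Tbcb by 0.46 in wt among them, and 1 lower, with the same counts in both genotypes. Of the HSP70 and HSP90 genes 4 of 23 were called higher and 2 lower in wt and 9 higher and 2 lower in Ts66Yah, and Hsp90aa1 (0.28) and Hsp90ab1 (0.10) were not called in wt. Of HSF1 and its regulators 2 of 4 were called higher in wt, with Hsbp1 up by 0.59, and 1 lower, and 2 of 5 higher and 1 lower in Ts66Yah. Of the chaperonin-like genes 1 of 3, Mkks at 0.39 in wt, was called higher and 1 lower in each genotype. None of the 4 mitochondrial chaperone genes was called in wt, where Hspd1 was at 0.21 and Hspa9 at −0.04. In Ts66Yah 1 of 4, Hspd1 (0.18, edgeR adjusted p = 0.00462), was called higher. In the interaction of genotype and region, edgeR called no gene of these lists.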

How the data were processed

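RNA was taken from the HIP and EC of 11 mice, and groups and replicate numbers came from the labels. Per the study's methods, Hisat2 placed single-end reads on GRCm38, and HTSeq-count tallied them by Ensembl gene. Versions and the handling of reads that map to several places are not given in the sources used here. The labels describe poly(A) selection. The methods name a kit with ribosomal RNA depletion but also give the extracted molecule as polyA RNA, so the sources differ on how the RNA was selected. The authors deposited raw counts per gene, and these were used unchanged. The authors' own tables of DESeq2 and FCROS comparisons (fold changes and p-values) were not used.

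Counts were fitted with edgeR 4.0.16 (R 4.3.3) by its quasi-likelihood test after filterByExpr, with TMM scaling, within each region for genotype and within each genotype for region, and p-values were adjusted (Benjamini-Hochberg) across the whole table at a threshold of 0.05. CPM values are counts divided by the TMM-scaled library size, log2 CPM used a prior count of 2, and the log of 1.5 was added to the offsets of Ts66Yah libraries to test dosage. Genes of Mmu16 distal to and including Mir155 formed the triplicated segment. Ratios were tested with exact permutation tests (scipy 1.17.1). Symbols, positions and lengths came from GENCODE M21, and shared sequence from blastn 2.17.0. For genes with several RefSeq promoter windows, the window nearest the annotated gene start was used. The fits were tested on simulated counts.

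HIP and EC libraries of the same number come from the same animal (correlation of deviations from group means 0.21 to 0.45), so region fits were repeated with the animal as a block. Alternatives were DESeq2 1.42.0, limma voom (limma 3.58.1), RLE factors, other filters on low counts, all libraries in one fit, blocks, other denominators and leaving out each library or animal. Named genes are the subunits, the 2 most abundant genes of each list and any gene called between genotypes, the 2 nearest tested protein-coding genes on each side of Cct8 and the 5 most similar genes. Hspa8 and the genes named beside an unadjusted p were added after their values were seen, as were the DESeq2 and limma voom calls of the list genes. Members and lists were chosen with earlier results of these data known. Intervals are 95% intervals of the edgeR fit, and p-values between genotypes within a region measure the spread between these animals. The main region and interaction fits treated the HIP and EC libraries of an animal as independent. Only the fits with the animal as a block took their pairing into account.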

Additional observations from a re-analysis of the deposited data

Results flagged for a closer look

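Of 36 sets of values examined (the CPM of each subunit and the log2 ratio of Cct8 in each group), 2 held a library that stood apart from the others by Dixon's criterion, and chance flags about 1 in 20 groups. Cct8 in wt EC replicate 4 was at 245 CPM, with the other wt EC libraries between 189.9 and 199.7 CPM. The gap was 0.823 of the whole range. Cct4 in wt HIP replicate 1 was at 86.1 CPM, below the 98.3 to 100.5 CPM of the other wt HIP libraries, with a gap of 0.847 of the range. The ratio of Cct8 to its partners was not set apart in either library.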

How the results depend on the processing

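The rise of Cct8 in Ts66Yah kept its direction and its call under all 38 alternatives, counted over both regions together (other tests, scalings, filters, blocks and left-out libraries). It lay at 0.58 to 0.62 (HIP) and 0.62 to 0.72 (EC) on the log2 scale. The ratio of Cct8 to its partners kept both under all 30, counted in the same way (without single libraries 0.58 to 0.60 in HIP, 0.61 to 0.66 in EC). None of the other 7 subunits was called between genotypes in any of 266 results, 1 for each subunit under each alternative in each region. 15 of these turned the sign of a value near 0, such as Cct5 in the HIP, which was 0.0056 with the replicate block, and with left-out libraries Cct3 (−0.041 to 0.0032), Cct5 (−0.028 to 0.018) and Cct7 (−0.0019 to 0.034) in the HIP, as well as Cct3 (−0.081 to 0.0013), Cct4 (−0.00067 to 0.082) and Cct5 (−0.037 to 0.028) in the EC. The difference of Cct8 from 1.5-fold ranged from −0.0068 to 0.035 (HIP) and from 0.033 to 0.14 (EC) when a library was left out. That of its ratio ranged from −0.0057 to 0.011 (HIP) and from 0.029 to 0.079 (EC), and was −0.064 with the median of the partners in the HIP; the cause was not tested. With the longest coding transcript, the share of Cct8 was 12.5% and 17.6% (wt and Ts66Yah HIP) and 13.4% and 19.4% (wt and Ts66Yah EC).

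Counts of called genes were less stable. DESeq2 called 187 genes higher and 183 lower in the HIP against 81 and 28, and 79 and 29 in the EC against 48 and 2. Lower calls were 15 in the HIP and 14 in the EC with all libraries in one fit, and 6 and 1 with the replicate block. They were 5 and 1 with the block by range of animal numbers, a fit that also left out wt replicate 1. When a single library was left out, lower calls were 8 to 67 (HIP) and 0 to 7 (EC). Higher calls were then 65 to 83 and 37 to 51. The most lower calls were 67 without wt HIP replicate 2 and 7 without wt EC replicate 4, and the cause was not tested. Replicate numbers did not pair wt with Ts66Yah animals (correlations −0.01 to 0.06 in HIP, 0.02 to 0.18 in EC). With the animal as a replicate block, the region calls of all 8 subunits were the same in both genotypes. Without a filter on low counts the region call of Cct2 in wt was lost (0.17, edgeR adjusted p = 0.0779). The region difference of Cct5 ranged from −0.062 to 0.00042 in wt when an animal was left out. For the interaction, 0 genes were called under each alternative, Cct5 was at −6.09e-05 with the animal as a block and −0.00105 with RLE factors, and leaving out a library moved Tcp1 between −0.055 and 0.044, Cct2 between −0.057 and 0.014, Cct3 between −0.061 and 0.0037 and Cct5 between −0.015 and 0.038. The number of animals limits how small a change of a partner subunit could be detected.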
